A study of Mus musculus with 12 samples.

Results

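Exportins and importins are the carrier proteins that move cargo through nuclear pores. The genes described are 10 of these carriers in mouse bone marrow erythroblasts: the exportins Xpo1, Xpo4, Xpo5, Xpo6, Xpo7, Xpot and Cse1l, and the importins Kpnb1, Kpna2 and Ipo7. They were taken by gene symbol from a table of 29838 genes, of which 12994 were tested, and all 10 passed the filter on low values. The set was chosen by the FPKM of 1 exportin, Xpo7, which lay far higher in the last stage than before it. Every contrast with that stage is therefore given as a description of these 10 genes, with no test.

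RNA was sequenced from 4 stages of terminal erythroid differentiation, with 3 libraries each: proerythroblasts (Pro), basophilic (Baso), polychromatic (Poly) and orthochromatic (Ortho) erythroblasts. All cells came from wild-type male C57/BL6 mice of 8 weeks, for which no treatment is given, and were depleted of cells carrying CD45, the pan-leukocyte surface protein, and stained together for CD45 and the myeloid proteins CD11b and GR1 to leave those cells out. Pro were sorted as CD44 high and Ter119 low, and the other stages from Ter119-positive cells by CD44 and forward scatter, a measure of cell size. Nothing in the labels ties replicates to separate mice, so p-values measure only the spread between these libraries, which may be technical. For Ortho replicates 2 and 3 the cell type is given as erythroblast with no stage, and their titles place them in Ortho.

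Carriers of the importin-beta family bind or release cargo according to the state of the small GTPase Ran, which is loaded with GTP in the nucleus and hydrolyses it in the cytoplasm. Exportins bind cargo together with Ran-GTP in the nucleus, whereas importins give up their cargo there when Ran-GTP binds. In late erythroblasts the nucleus condenses before it is expelled, and Xpo7, a carrier with a broad range of cargo, has been linked to the loss of nuclear proteins, histones included, during that condensation.

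The promoters of 7 of the 10 genes, Xpo1, Xpo5, Xpo6, Xpot, Kpnb1, Kpna2 and Ipo7, were matched in a RefSeq table of build GRCm38.p6. Each window runs from 250 bases before the annotated start to 50 bases from it. The 3 printed here belong to the genes whose Ortho values lay furthest below Poly, and they share 2 or more copies of CCAAT, read as ATTGG on the other strand, which are in capitals. The Xpo1 window is chr11:23255791-23256090 on the plus strand, the Kpnb1 window chr11:97187843-97188142 and the Kpna2 window chr11:106999476-106999775, both on the minus strand and printed 5′ to 3′ along the gene.
Xpo1: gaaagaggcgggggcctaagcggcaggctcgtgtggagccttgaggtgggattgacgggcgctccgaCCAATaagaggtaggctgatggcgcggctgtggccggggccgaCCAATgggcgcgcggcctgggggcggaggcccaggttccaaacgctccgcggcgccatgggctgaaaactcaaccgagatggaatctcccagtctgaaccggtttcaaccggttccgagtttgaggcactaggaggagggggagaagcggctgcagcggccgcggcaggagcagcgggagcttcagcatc
Kpnb1: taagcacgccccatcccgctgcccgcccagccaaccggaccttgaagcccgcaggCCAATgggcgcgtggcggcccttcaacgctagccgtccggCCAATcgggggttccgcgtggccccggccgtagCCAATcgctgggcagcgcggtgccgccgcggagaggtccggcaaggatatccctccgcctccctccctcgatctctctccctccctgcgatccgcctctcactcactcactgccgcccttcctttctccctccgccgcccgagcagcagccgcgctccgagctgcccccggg
Kpna2: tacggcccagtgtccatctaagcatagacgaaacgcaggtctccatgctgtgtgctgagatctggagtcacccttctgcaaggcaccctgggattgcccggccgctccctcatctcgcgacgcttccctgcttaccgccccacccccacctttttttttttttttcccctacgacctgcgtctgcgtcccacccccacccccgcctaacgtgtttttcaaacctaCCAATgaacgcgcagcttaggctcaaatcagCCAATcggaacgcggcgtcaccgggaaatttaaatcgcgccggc

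CCAAT occurred 2 times in the Xpo1 window, 3 times in the Kpnb1 window and 2 times in the Kpna2 window. The copies began 183 and 140 bases before the start in Xpo1, and 195, 155 and 122 bases before it in Kpnb1. In Kpna2 one copy began 25 bases before the start and the other 6 bases after it. Xpo6 held 1 copy and Xpo5, Xpot and Ipo7 held none. Of all 32851 promoters of this length in the table, 37.4% held the letters at least 1 time and 11.7% at least 2 times. GATAA, or TTATC on the other strand, was in none of the 7 windows and in 25.4% of all promoters. CACCC, or its complement GGGTG, was in 3 of the 7, Xpo5, Kpna2 and Ipo7, and in 57.5% of all. GCGGGAA, or its complement TTCCCGC, was in none of the 7 and in 4.60% of all. No CCAAT copy overlapped a match of another string. The strings were chosen after values of these data had been seen, and such matches describe letters in a window and not binding.

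FPKM values are fragment counts divided by transcript length and by library size, so levels of different genes can be set side by side. FPKM in a library is relative to its other transcripts. Hemoglobin genes took 8.45 ± 1.95% of the FPKM sum in Pro, 35.1 ± 1.79% at Baso, 36.6 ± 1.56% at Poly and 49.6 ± 2.74% at Ortho (SD, n = 3), which lowers the share left for the others. The median log2 difference of all genes tested was -0.42 between Ortho and Pro as deposited, and -0.01 once hemoglobin genes were left out. Depth is unknown, since low values showed no steps of whole fragments. In bulk samples, fewer cells of a type and less RNA per cell cannot be told apart.

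All 10 erythroid markers were at a stage mean of at least 1 FPKM in every stage. Their sums, which include the hemoglobin genes Hbb-bs and Hba-a1, were 21049.2 to 32316.5 FPKM in Pro and 168229 to 200766 at Ortho. Of these markers, Slc4a1 went from a mean of 582 in Pro to 1672 at Ortho, whereas Klf1 went from 320 to 69.3 and Epor from 149 to 46.5. All 8 neutrophil markers were also present in every stage, with a summed level of 7041 to 8895 FPKM in Pro, 12227 to 14404 at Baso, 15787 to 18777 at Poly and 14030 to 17431 at Ortho. Of 6 macrophage markers, 4 reached 1 FPKM, with sums from 29.0 to 35.0 in Pro and from 61.5 to 73.5 in Ortho. B cell markers reached 1 FPKM for 6 of 7 genes in Pro and all 7 in Ortho, with sums from 59.4 to 103.9 and from 149.8 to 193. Of 5 T and NK cell markers, 2 reached 1 FPKM and the sums were 21.7 to 30.8 in Pro and 37.1 to 41.5 in Ortho, with Cd3e at 0 in all libraries of both stages and Cd3g at 0 in all Ortho libraries. Megakaryocyte sums were 65.3 to 121 in Pro, with 5 of 5 markers at 1 FPKM, and 35.2 to 44.6 in Ortho, with 4 of 5. These lists moved with stage, and their part in the results below was not tested.

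Xpo7 went from one of the less abundant carriers in Pro to the most abundant in Ortho. The gene lies at chr14:70654246-70766628 on the minus strand of mm10 and has 28 exons in the transcript with its longest coding sequence. Its FPKM was 18.6, 29.9 and 17.5 in the 3 Pro libraries, 114.7, 95.7 and 82.8 at Baso, 123, 127 and 104 at Poly and 954, 935 and 956 at Ortho. All Baso libraries lay above all Pro libraries, Baso and Poly overlapped, and all Ortho libraries lay above the rest. The means were 21.99 ± 6.90, 97.7 ± 16.0, 118 ± 12.2 and 948 ± 11.7 FPKM (SD, n = 3).

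The increase from Pro to Baso was 2.13 ± 0.18 on the log2(FPKM + 1) scale (SE; adjusted p = 3.74e-06, limma with Benjamini-Hochberg adjustment over 12994 genes), a 4.45-fold ratio of mean FPKM. It ranked 29 from the top of all genes tested. In Poly, Xpo7 was 2.41 ± 0.18 above Pro (limma, adjusted p = 8.21e-07), and this comparison shares the Pro libraries with the first. Pro was also among the stages before Ortho that entered the choice of the set by Xpo7. Low Pro values favour both that choice and a rise from Pro, so neither p-value is independent of the choice. Between Poly and Baso the difference was 0.28, with a 95% interval from -0.11 to 0.67 (limma, adjusted p = 0.326), so no change was detected at that step and a rise of up to 0.67 remains within the interval.

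Pro replicate 2 held both the highest Xpo7 value of that stage and the highest hemoglobin share, 10.7% against 7.70% and 6.98%. Without it the log2 difference between Baso and Pro was 2.36 (limma, adjusted p = 1.18e-06). Xpo7 also varied more between Pro libraries than in Ortho, with a coefficient of variation of 31.4% against 1.23%.

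As a description of the contrast that chose the set, the Ortho mean of Xpo7 was 43.1 times the Pro mean and 8.03 times the Poly mean. The log2 differences were 5.41 and 3.0, and each was the highest of all 12994 genes tested. Even the lowest Ortho library was 31.2 times the highest Pro library. By mean FPKM the gene ranked 3869 from the top in Pro, 640 at Baso, 482 at Poly and 35 at Ortho. Of the whole log2 difference between Pro and Ortho, 39.4% was reached by Baso, 5.13% was added by Poly and 55.5% lay between Poly and Ortho.

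**Figure D1:**
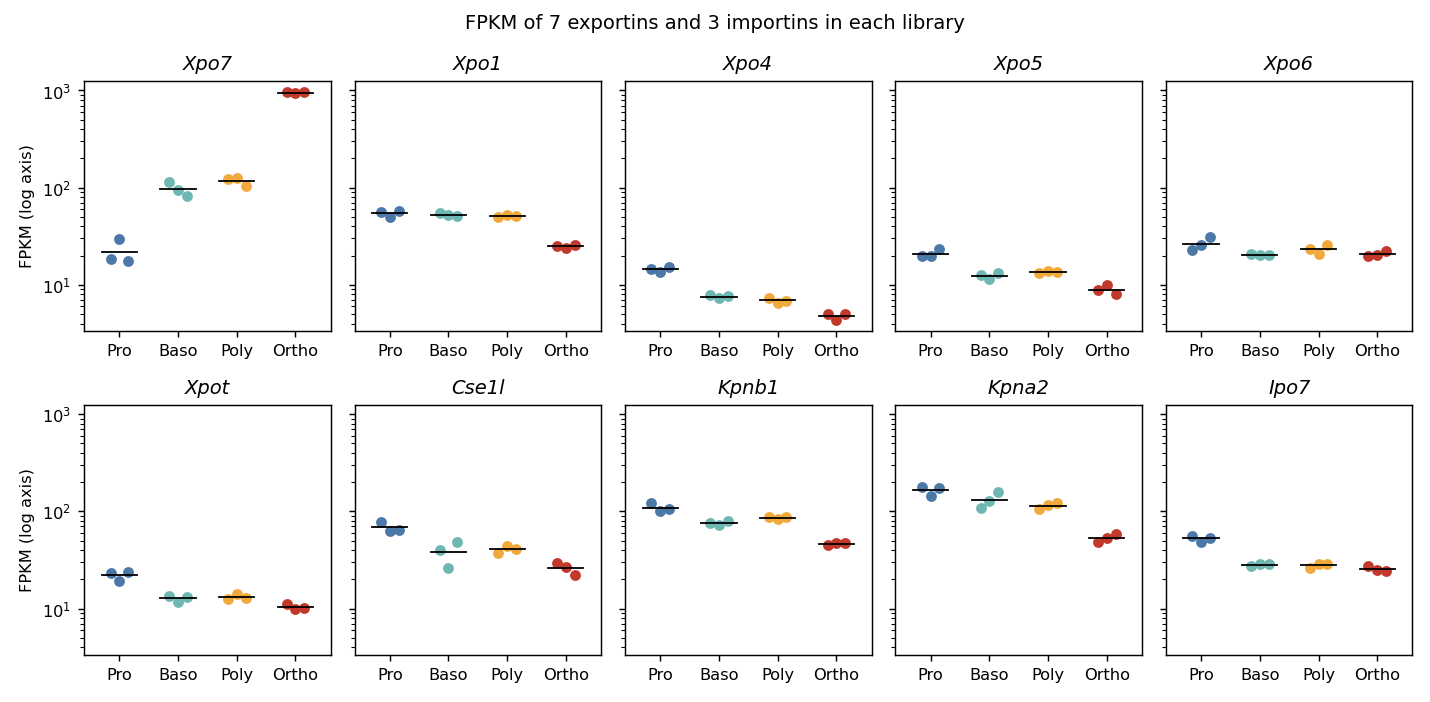
FPKM (log axis) of the 7 exportins and 3 importins, 1 panel per gene; points are the 3 libraries of each stage and black lines their mean. Xpo7 stepped up from 21.99 in Pro to 97.7 in Baso and lay at 948 in Ortho, while the other 9 genes lay lower in Ortho than in Pro.

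Annotated genes overlap Xpo7, and whether reads were counted by strand is not stated. Npm2, on the same strand, was at 0.200 ± 0.145 FPKM in Pro and 1.50 ± 0.254 in Ortho. Dok2, on the opposite strand, was at 4.40 ± 0.467 in Pro and 6.08 ± 0.531 in Ortho (SD, n = 3). Neither came near the level of Xpo7 in any stage after Pro. The processed pseudogene Gm49244, on the opposite strand, also overlaps Xpo7 and has no value here. The part of overlapping reads in the Xpo7 level was not tested.

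Xpo1 carries proteins with a leucine-rich export signal and is the most widely used exportin. Its FPKM was 56.3, 49.6 and 57.7 in Pro, 54.9, 52.3 and 51.1 at Baso, 50.4, 52.2 and 50.8 at Poly and 25.3, 23.8 and 25.6 at Ortho. The first 3 stages overlapped and all Ortho libraries lay below them. Baso differed from Pro by -0.04 as deposited (95% interval -0.20 to 0.11, limma, adjusted p = 0.606), but by 0.27 once hemoglobin genes were left out (limma, adjusted p = 0.00740) and by 0.25 with each library centred on its median (limma, adjusted p = 0.00882). With every library scaled to the same FPKM sum it went the other way, at -0.22 (limma, adjusted p = 0.0340). Poly differed from Pro by -0.09 (limma, adjusted p = 0.285), and by 0.25 with hemoglobin left out (limma, adjusted p = 0.00720). With the same sum the Poly difference was -0.27 (limma, adjusted p = 0.0125). Ortho was at 48.7% of the Poly mean and the step from Poly to Ortho held 91.9% of the whole log2 difference from Pro.

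Cse1l returns importin-alpha to the cytoplasm and was the most abundant exportin in Pro. Its FPKM was 78.2, 62.5 and 64.9 in Pro, 40.5, 26.1 and 48.2 at Baso, 37.2, 44.0 and 41.0 at Poly and 29.3, 27.1 and 22.1 at Ortho. It fell by 0.86 from Pro to Baso on the log2 scale (SE 0.19, limma, adjusted p = 0.00237). The Baso libraries were spread widely, with replicate 2 the lowest, and without it the difference was -0.62 (limma, adjusted p = 0.00421). Poly was also below Pro, with a log2 difference of -0.73 as deposited (limma, adjusted p = 0.00500) and -0.39 with hemoglobin genes left out (limma, adjusted p = 0.0970).

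Xpo4, Xpo5 and Xpot have narrower cargo: Xpo4 exports the translation factor eIF5A, Xpo5 precursors of microRNAs, and Xpot transfer RNA. Xpo4 was the least abundant of the 10 genes in every stage, at 14.7, 13.6 and 15.1 FPKM in Pro, 7.80, 7.29 and 7.67 at Baso, 7.36, 6.58 and 6.88 at Poly and 5.04, 4.37 and 5.01 at Ortho. Xpo5 was at 19.98, 19.7 and 23.4 in Pro, 12.7, 11.5 and 13.2 at Baso, 13.3, 13.7 and 13.7 at Poly and 8.89, 9.86 and 8.03 at Ortho. Xpot was at 23.3, 19.3 and 23.5 in Pro, 13.4, 11.7 and 13.1 at Baso, 12.5, 14.0 and 13.0 at Poly and 11.1, 9.99 and 10.2 at Ortho.

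In all of these, Pro lay above every later library and Ortho below every earlier one. From Pro to Baso, Xpo4 fell by 0.85 (SE 0.08, limma, adjusted p = 9.66e-06), Xpo5 by 0.71 (SE 0.09, adjusted p = 7.80e-05) and Xpot by 0.74 (SE 0.09, adjusted p = 4.96e-05) on the log2 scale. That first step held 59.9%, 61.5% and 73.6% of their whole difference between Pro and Ortho. Ortho means were 33.3%, 42.5% and 47.3% of Pro.

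Xpo6, the carrier of actin bound to profilin, differed least between stages. Its FPKM was 22.8, 25.8 and 30.8 in Pro, 20.8, 20.3 and 20.3 at Baso, 23.5, 20.7 and 25.5 at Poly and 19.96, 20.3 and 22.5 at Ortho. Only Pro stood clear of Baso and of Ortho, by a narrow margin. The difference of Baso from Pro was -0.35 (limma, adjusted p = 0.0172), -0.23 without Pro replicate 3 (adjusted p = 0.0721) and -0.04 with hemoglobin genes left out (adjusted p = 0.753). Ortho lay at 79.0% of Pro as deposited, a log2 difference of -0.32 that became 0.16 with hemoglobin left out and 0.08 with median centring.

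Among the importins, Kpna2, an importin-alpha that recognises classical import signals, was the most abundant of the 10 genes in Pro. Its FPKM was 177, 144 and 174 in Pro, 108.5, 128 and 158 at Baso, 104.7, 116 and 121 at Poly and 48.0, 52.9 and 58.7 at Ortho. Baso overlapped Pro and Poly, and all Ortho libraries lay below the rest. The difference of Baso from Pro was -0.34 (95% interval -0.63 to -0.04) and sat at the threshold (limma, adjusted p = 0.0505). With the replicate number as a block over all 12 libraries its adjusted p was 0.0224, and over all 23 alternatives it ran from 0.00718 to 0.898. Poly differed from Pro by -0.53 (limma, adjusted p = 0.00480), but by -0.18 with hemoglobin left out (adjusted p = 0.262).

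Kpnb1 is importin-beta, which pairs with importin-alpha and carries it into the nucleus. Its FPKM was 121.6, 100.7 and 105.1 in Pro, 75.1, 72.8 and 79.5 at Baso, 87.1, 83.3 and 87.1 at Poly and 44.9, 47.4 and 47.3 at Ortho. No libraries of different stages overlapped. Kpnb1 fell by 0.52 from Pro to Baso (SE 0.08, limma, adjusted p = 0.000157), and the difference was -0.20 with hemoglobin genes left out (adjusted p = 0.0601). Poly lay 0.18 above Baso on the log2 scale (limma, adjusted p = 0.146), and with the replicate block, fitted without the Pro libraries, the difference passed (limma, adjusted p = 0.0456). Poly compared with Pro was -0.34 (limma, adjusted p = 0.00211), and 0.01 with hemoglobin left out.

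Ipo7 imports ribosomal proteins and histone H1. It was at 55.7, 48.3 and 53.8 FPKM in Pro, 27.7, 28.9 and 28.6 at Baso, 26.0, 29.0 and 28.7 at Poly and 27.5, 25.2 and 24.6 at Ortho. Pro stood apart and the 3 later stages lay close together. Ipo7 fell by 0.86 from Pro to Baso (SE 0.08, limma, adjusted p = 5.07e-06), with Cse1l and Xpo4 within the SE of it, and 86.3% of its whole difference between Pro and Ortho lay there. Ortho differed from Poly by -0.11 as deposited, by 0.03 with hemoglobin left out and by 0.04 with median centring.

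Counted over the set, 7 of 10 genes fell from Pro to Baso, where 42.1% of all genes tested fell, and Xpo7 alone rose, where 14.9% of all genes rose. The rise of Xpo7 from Pro is favoured by the choice of the set, which used its Pro values. None of the 7 fell by 1 or more on the log2 scale, where 8.54% of all genes did. From Baso to Poly no gene of the set passed, where 6.58% of all genes rose and 5.77% fell. Only Kpnb1 had an unadjusted p under 0.05 at that step. From Pro to Poly 7 fell and 1 rose, where 42.7% of all genes fell and 23.3% rose, and the 2 that did not pass were Xpo1 and Xpo6. Leaving out Xpo7, the median difference of the other 9 from Pro to Baso was -0.71, against -0.23 over all genes tested.

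Scaling moved these counts. With hemoglobin genes left out, 2 genes rose from Pro to Baso (Xpo7 and Xpo1) and 5 fell, where 27% of all genes rose and 24% fell. From Pro to Poly 2 rose and 4 fell, where 35.8% of all genes rose and 27.1% fell. Over all genes tested the share of calls that were higher in Baso than Pro moved from 26.2% to 52.95% under that scaling and to 56.5% with median centring.

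Against Ortho, which the choice of genes used, 9 of 10 had all Ortho libraries below all Pro libraries and Xpo7 had all above. Over all genes tested, 53.6% were separated in this way downward and 23.2% upward, as deposited. With hemoglobin genes left out, and also with median centring, 8 carriers were separated downward, with Xpo6 no longer among them. No share of all genes is given here for that count. Below Poly, 7 genes were separated, where 31.3% of all were, and Xpo7 was separated upward, where 11.3% were. The Ortho libraries of Xpo6 and Ipo7 overlapped Poly. The differences of Ortho from Poly were -1.09 for Kpna2, -1.01 for Xpo1, -0.87 for Kpnb1, -0.62 for Cse1l, -0.56 for Xpo5, -0.45 for Xpo4 and -0.31 for Xpot.

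**Figure D2:**
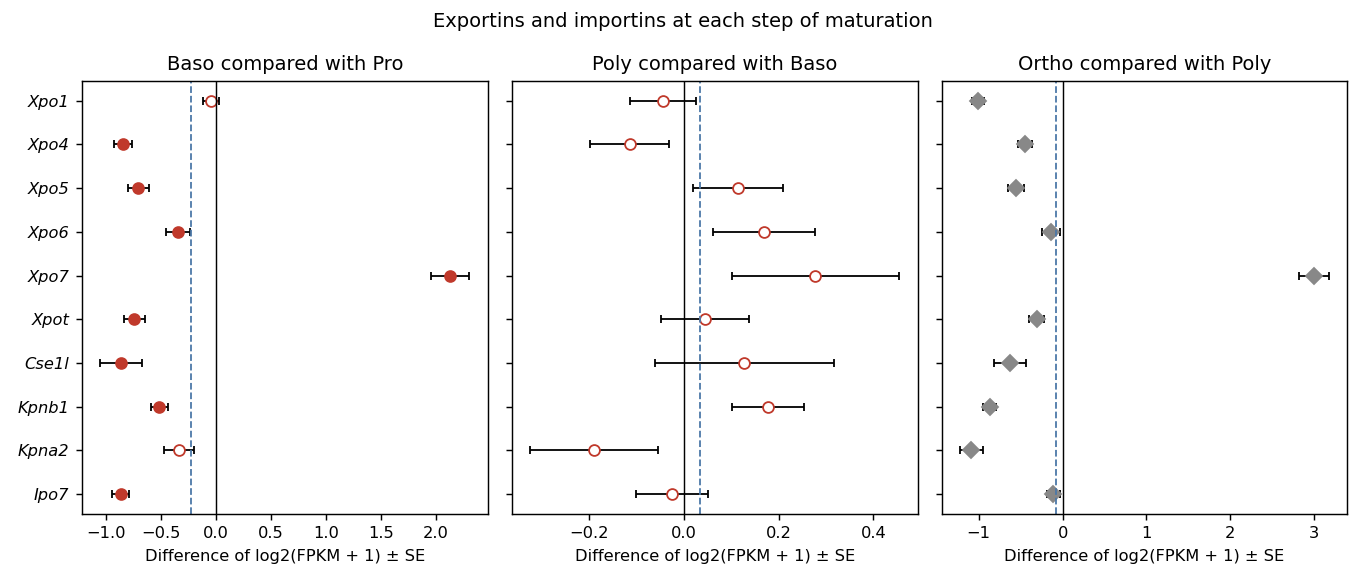
Difference of log2(FPKM + 1) with its SE for each gene between neighbouring stages (n = 3 libraries each; the x axes differ between panels); filled circles passed limma at an adjusted p under 0.05, open circles did not, grey diamonds were not tested, and dashed lines mark the median of all genes tested. At Baso compared with Pro the lowest points are Ipo7, Cse1l and Xpo4, and at Ortho compared with Poly they are Kpna2, Xpo1 and Kpnb1.

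The genes thus differed in the step that held most of their decrease. Ipo7, Xpot, Cse1l, Xpo5 and Xpo4 had over 59% of it by Baso, whereas Xpo1, Kpnb1 and Kpna2 had 91.9%, 72.0% and 67.4% of it between Poly and Ortho. For Cse1l this rests on Baso replicate 2: without it the difference of Baso from Pro is -0.62, Poly lies -0.12 from Baso, and the difference of Ortho from Poly, also -0.62, is as large as the first step. Over all 8900 genes tested that had a promoter sequence, the median difference of Ortho from Poly was -0.07 for genes with no CCAAT in the window, -0.07 with 1 copy and -0.12 with 2 or more. In 29 other transport genes it was -0.34 for 15 genes with none, -0.16 for 10 genes with 1 copy and -0.54 for 4 genes with 2 or more. For Baso compared with Pro, the medians with no copy, 1 copy and 2 or more were -0.220, -0.234 and -0.221 over all these genes. In the other transport genes they were -0.538, -0.585 and -0.585. These are descriptions, with no test.

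The order of levels changed with stage. In Pro, Kpna2 stood above Kpnb1, Cse1l and Xpo1 in that order, Xpo1 and Ipo7 overlapped, Xpo6, Xpot, Xpo7 and Xpo5 overlapped as neighbours, and Xpo4 was lowest. In Baso and Poly, Kpna2 and Xpo7 overlapped at the top, followed by Kpnb1 and Xpo1. In Ortho, Xpo7 stood clear at the top, above Kpna2 and Kpnb1, and Cse1l, Ipo7 and Xpo1 overlapped as neighbours below them.

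Ratios within a library do not depend on its scaling. Xpo7 made up 7.94%, 13.6% and 7.49% of the summed FPKM of the 7 exportins in the Pro libraries, 43.3%, 42.5% and 35.0% at Baso, 46.1%, 45.6% and 40.8% at Poly and 90.5%, 90.7% and 91.1% at Ortho. The stage means were 9.67 ± 3.39%, 40.3 ± 4.58%, 44.2 ± 2.89% and 90.8 ± 0.279% (SD, n = 3). The ratio of Xpo7 to Xpo1 was 0.412 ± 0.166 in Pro, 1.85 ± 0.235 at Baso, 2.31 ± 0.223 at Poly and 38.1 ± 0.994 at Ortho. Xpo7 was thus below Xpo1 in every Pro library and above it in every later one.

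**Figure D3:**
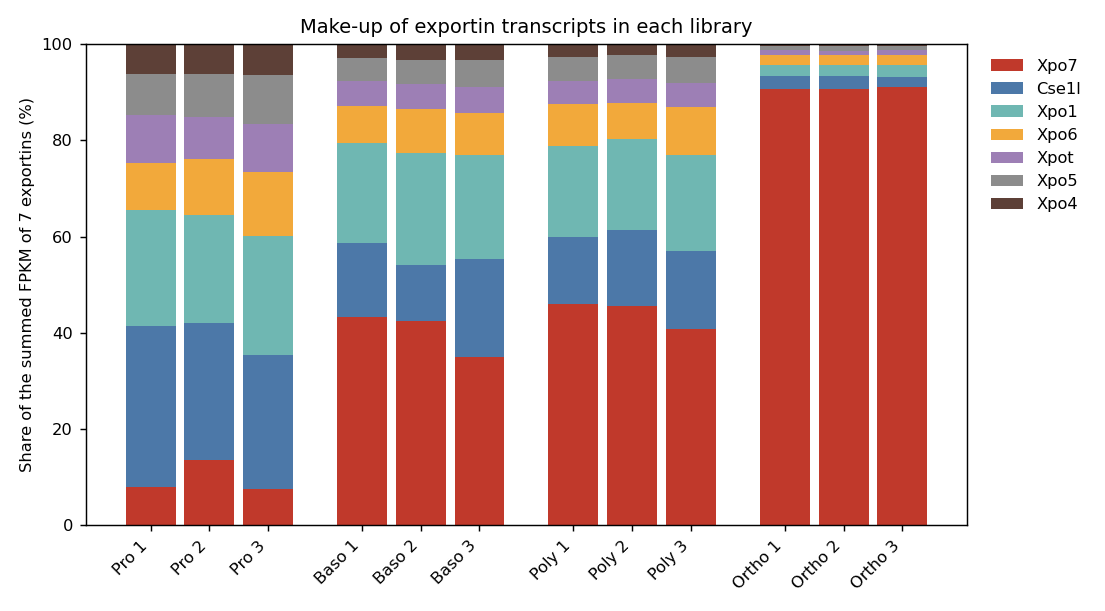
Share (%) of each exportin in the summed FPKM of the 7 exportins, 1 stacked bar for each of the 12 libraries, numbered by replicate. Xpo7 takes 7.49% to 13.6% in Pro, 35.0% to 46.1% in Baso and Poly and 90.5% to 91.1% in Ortho.

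The summed FPKM of the 7 exportins was 229 ± 7.52 in Pro, 242 ± 20.5 at Baso, 267 ± 11.6 at Poly and 1044 ± 12.5 at Ortho. Without Xpo7 it was 207 ± 14.4, 144 ± 13.2, 149 ± 3.92 and 96.2 ± 3.17. The importin sum was 327 ± 31.3, 236 ± 28.0, 228 ± 9.71 and 125 ± 5.11 (SD, n = 3). The ratio of the exportins other than Xpo7 to the 3 importins was 0.635 ± 0.0239 in Pro and 0.768 ± 0.0566 in Ortho, a small shift next to that of Xpo7, although the libraries of these stages did not overlap.

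Among the exportins other than Xpo7, Xpo6 took 12.8 ± 1.96% of the sum in Pro and 21.8 ± 2.07% in Ortho, with no overlap. Xpo1 took 26.3 ± 0.404% in Pro and 25.9 ± 1.28% in Ortho, but 36.8 ± 3.63% in Baso and 34.4 ± 0.654% in Poly. The ratio of Kpna2 to Kpnb1 was 1.52 ± 0.126 in Pro, 1.73 ± 0.274 at Baso, 1.33 ± 0.111 at Poly and 1.14 ± 0.0883 at Ortho (SD, n = 3).

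The other genes of the pathway were taken as 4 lists: 11 further genes of the importin-beta family, 5 importin-alpha genes, 7 genes of the Ran cycle and 12 transport partners. Of the 35, Kpna7 alone did not pass the filter on low values. Between Ortho and Pro, 32 of 34 fell and none rose (limma, adjusted p under the threshold), where 53.2% of all genes tested fell and 22.7% rose. The median was -1.13, against -0.42 over all genes. With hemoglobin genes left out 27 fell and 2 rose, Tnpo1 and Pfn1, where 34.4% of all genes fell and 34.8% rose. With median centring 27 fell and none rose, where 35.5% of all genes fell and 34.5% rose.

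Ranbp17 is the closest relative of Xpo7 in the family. Its mean was 1.35 ± 0.102 FPKM in Pro, 0.793 ± 0.225 at Baso, 0.654 ± 0.134 at Poly and 0.198 ± 0.127 at Ortho (SD, n = 3), so it was low throughout. The difference of Ortho from Pro was -0.98 (SE 0.13). It is given without a p, because the gene reached the filter through its higher values in Pro, which favours a fall from that stage, and it counts as 1 of the 32.

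In the importin-beta family 10 of 11 genes fell from Pro to Ortho, with Ranbp17, whose fall the filter favours, among them. The largest decreases were in Ipo5, a carrier of ribosomal proteins and histones, with -1.57 (limma, adjusted p = 3.45e-08), and Ipo4 with -1.37 (adjusted p = 1.05e-05). Ipo13 was the smallest that passed, with -0.49 (adjusted p = 0.000766), but it was at -0.04 with hemoglobin left out (adjusted p = 0.756) and at -0.09 with median centring (adjusted p = 0.417). Tnpo1, which imports RNA-binding proteins, did not pass, with 0.02 (adjusted p = 0.919). Its Ortho libraries were widely spread, at 19.4 ± 6.62 FPKM, and without Ortho replicate 2 the difference was 0.33 (adjusted p = 0.0131), whereas it was -0.33 with every library scaled to the same sum (adjusted p = 0.172).

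Of the 4 importin-alpha genes tested, 3 fell from Pro to Ortho. Kpna3 had -1.36 (limma, adjusted p = 4.22e-08), Kpna6 -1.23 (adjusted p = 1.31e-07) and Kpna4 -0.42 (adjusted p = 0.000107), though Kpna4 was at 0.05 with hemoglobin left out. Kpna1 did not pass, with -0.38 (adjusted p = 0.261), and was at 0.08 under that scaling.

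All 7 Ran cycle genes fell from Pro to Ortho, with the lowest median of the lists, -1.58. Ran itself was at 324 ± 53.2 FPKM in Pro, 205 ± 6.41 at Baso, 200.4 ± 1.76 at Poly and 100.6 ± 3.10 at Ortho (SD, n = 3), and fell by 1.67 on the log2 scale between the first and the last (limma, adjusted p = 4.47e-08). Rcc1, the exchange factor that loads Ran with GTP on chromatin, had -1.69 (adjusted p = 3.99e-09), and Nutf2, which returns Ran to the nucleus, -1.94 (adjusted p = 8.82e-06). Ranbp2, a protein of the cytoplasmic face of the pore, was the smallest with -0.82 (adjusted p = 0.000102).

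Rangap1, which triggers GTP hydrolysis by Ran, had a timing of its own within its list. It was at 93.7 ± 13.8 FPKM in Pro, 90.7 ± 0.492 at Baso, 88.2 ± 3.41 at Poly and 35.2 ± 3.14 at Ortho (SD, n = 3). Baso differed from Pro by -0.04 (limma, adjusted p = 0.772) and Ortho from Poly by -1.30 (limma, adjusted p = 1.19e-06). It was the only Ran cycle gene that did not pass between Pro and Baso.

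All 12 transport partners fell from Pro to Ortho. Drosha, which releases the microRNA precursors that Xpo5 carries, had -1.83 (limma, adjusted p = 3.87e-08) and Eif5a, the cargo of Xpo4, -1.19 (adjusted p = 2.35e-07). Dicer1, which cuts the exported precursors, had -0.42 (adjusted p = 0.00659), and 0.03 with hemoglobin left out. Pfn1, the profilin of the Xpo6 cargo, had -0.24 as deposited (adjusted p = 0.0119), but was 0.26 higher with hemoglobin left out (adjusted p = 0.00569).

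**Figure D4:**
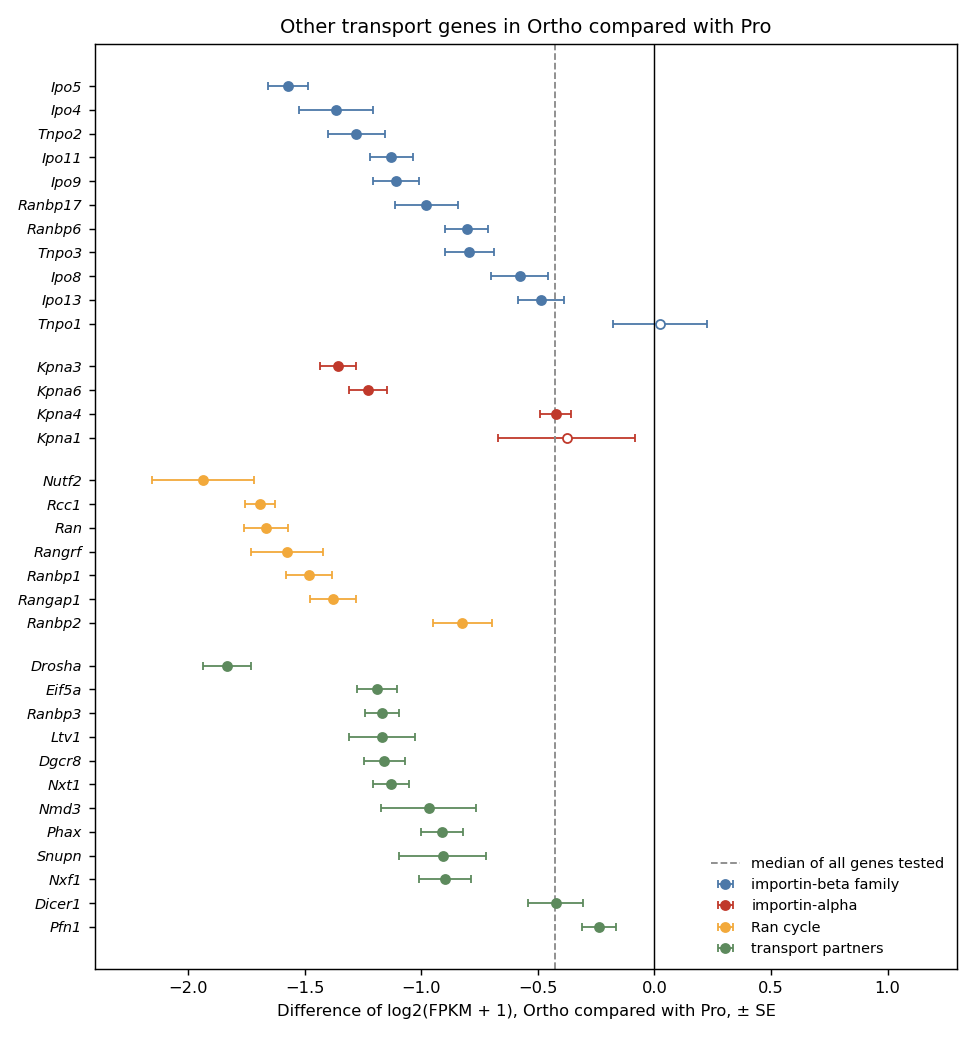
Difference of log2(FPKM + 1) between Ortho and Pro, with its SE, for the 34 other transport genes tested, coloured by list; filled points passed limma at an adjusted p under 0.05, open points did not, and the dashed line marks the median of all genes tested, -0.42. Of the 34, 32 passed and all of these lay below 0. Ranbp17 is among the 32 and reached the filter through its higher values in Pro.

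By step, 28 of the 34 fell from Pro to Baso, where 42.1% of all genes fell. Ranbp17 is among the 28, and its passing of the filter through Pro favours that fall too. From Baso to Poly 1 rose (Kpna4, 0.29, limma, adjusted p = 0.0183) and 2 fell (Tnpo2 and Kpna6), where 6.58% of all genes rose and 5.77% fell. From Poly to Ortho 19 fell and none rose, where 21.7% of all genes fell and 4.43% rose. Ranbp17 is among the 19, with stage means of 0.654 and 0.198 FPKM, both under the filter limit of 1. Its difference was -0.47 (limma, adjusted p = 0.0226), and it did not pass with median centring (limma, adjusted p = 0.115). Of the 19, 3 fell by 1 or more (Rangap1, Dgcr8 and Rcc1), where 4.81% of all genes did.

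The genes with the profile most like that of Xpo7 were sought among 7149 genes with a stage mean of at least 10 FPKM, as the smallest root mean square difference of log2(FPKM + 1) over the 12 libraries after centring each gene on its own mean. They were Tmcc2 (0.195), Slfn14 (0.401), Tcp11l2 (0.509), Fam46c (0.586) and Sowaha (0.610), each value on the log2 scale. Slfn14 is a ribosome-bound endoribonuclease and Fam46c a poly(A) polymerase. Tmcc2 rose in the same steps, from 43.8 FPKM in Pro to 184 at Baso, 198 at Poly and 1326 at Ortho. The nearest of the other 9 carriers was Xpo6 at 2.05 and the farthest Kpna2 at 2.54. Libraries shared by all genes enter this measure, and it says nothing of shared control.

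**Figure D5:**
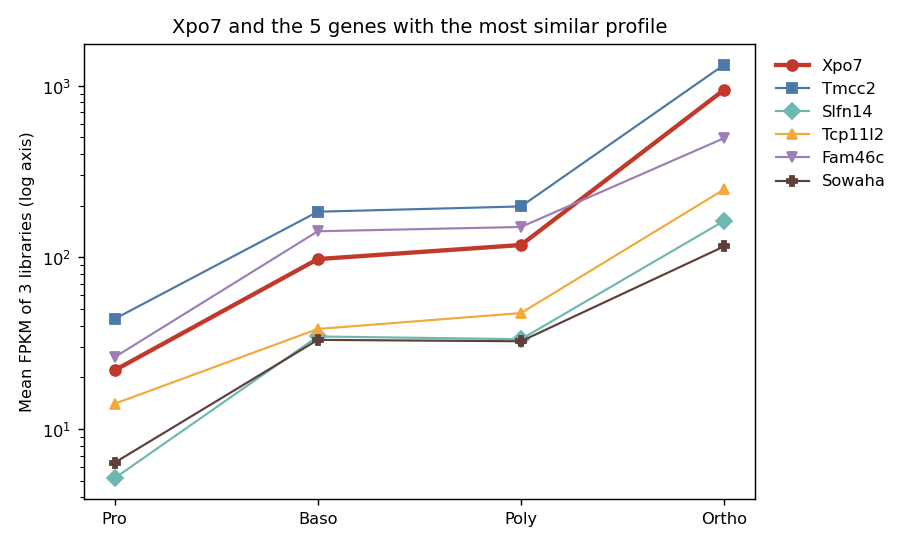
Mean FPKM (log axis, 3 libraries per stage) of Xpo7 and of the 5 genes with the smallest root mean square difference from it. All 6 lines step up from Pro to Baso, lie nearly level to Poly and are highest in Ortho, where Tmcc2 reached 1326 and Xpo7 948 FPKM.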

How the data were processed

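RNA-seq libraries of 4 erythroblast stages, 3 per stage, were analysed. The authors trimmed reads with Cutadapt and Trimmomatic, mapped them to mm10 with HISAT2, used featureCounts for gene counts and deposited 1 FPKM value per gene and library. Versions, strand setting and annotation were not given in the sources used here. The labels name Trizol and NEBNext Ultra, the methods Geek lysis and KAPA Hyper Prep. The authors tested counts with DESeq2, which was not run because FPKM are not counts.

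Genes with FPKM of at least 1 in at least 3 of 12 libraries (12994 of 29838, after 1 repeated identifier was removed) were tested on log2(FPKM + 1), with a pseudocount of 1, in limma 3.58.1 (R 4.3.3, variance trend, one model of all libraries, two-sided, Benjamini-Hochberg). A gene passed, rose or fell at an adjusted p under 0.05. The pseudocount makes differences of low genes too small. The model was tested on simulated data. In 825 genes with low values, ratios between libraries did not fall into steps (3.88% in the commonest bin), so depth is unknown and counting error cannot be given. No library pair was identical.

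The 10 genes, the lists and the tests were chosen with earlier results of these data known. Named were the 10 genes, Ranbp17, Ran, Rcc1, Rangap1, the 2 highest and 2 lowest of each list by Ortho compared with Pro, and the 5 genes most like Xpo7. Rangap1, Dgcr8, Tnpo2 and Kpna6 were also named at single steps after their values were seen. Positions are from GENCODE M21 on mm10, and promoters from RefSeq (GRCm38.p6).

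Replicate numbers were checked by the correlation of deviations from stage means. It was 0.182 to 0.238 for Baso and Poly, 0.156 to 0.264 for Baso and Ortho and 0.156 to 0.319 for Poly and Ortho, above 0.1 throughout. Replicate numbers were therefore taken as possible pairs among these stages, with no statement in the labels. The pairing entered only the replicate block, and the main model left it out. With Pro the correlation was 0.00524 to 0.0968. The alternatives tried were a pseudocount of 0.1 or 5, no filter, a mean FPKM of at least 5, a common FPKM sum, hemoglobin genes (12) left out, median centring, no trend, only the stages compared, a model without Ortho, the replicate block, a minimum log2 difference of 1, and each library left out.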

Additional observations from a re-analysis of the deposited data

How the results depend on the processing

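Xpo7 kept its direction and its side of the threshold under every alternative run, with log2 differences of 1.95 to 2.43 for Baso compared with Pro (limma, adjusted p from 1.18e-06 to 0.000433), 2.21 to 2.74 for Poly compared with Pro and 0.17 to 0.40 for Poly compared with Baso (adjusted p from 0.0648 to 0.650). Its Pro values entered the choice of the set, which favours its rises from Pro. Scaling mattered most for the other genes. With hemoglobin genes left out, carriers higher than Pro numbered 2 in Baso and 2 in Poly, where 27% and 35.8% of all genes were higher. Carriers lower in Poly numbered 4, where 27.1% of all genes were lower. In Ortho 2 other transport genes were higher than Pro, where 34.8% of all genes were. With median centring 2 carriers were higher in Baso, where 30.5% of all genes were. Asking also for a log2 difference of at least 1 left 0 lower carriers in Baso compared with Pro, where 8.54% of all genes were lower. It left 3 lower transport genes in Ortho compared with Poly, where 4.81% of all genes were lower. Compared with Pro, 0 carriers were lower in Poly and 19 transport genes in Ortho. No share of all genes is given here for these last counts, so they are not read as a result about the genes.

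Signs turned with hemoglobin left out and with median centring, in that order, for Xpo1 in Baso (0.27 and 0.25) and Poly (0.25 and 0.16) compared with Pro, Xpo6 in Poly (0.159 and 0.0714) and Ortho (0.155 and 0.0793) compared with Pro, Ipo7 in Ortho compared with Poly (0.0264 and 0.0366), and Kpna1 (0.0782 and 0.0202) and Pfn1 (0.255 and 0.159) in Ortho compared with Pro. With hemoglobin left out alone they turned for Kpnb1 in Poly compared with Pro (0.00736), Ipo7 in Poly compared with Baso (0.00690), and Kpna4 (0.0508) and Dicer1 (0.0295) in Ortho compared with Pro, and with median centring alone for Xpo6 in Ortho compared with Poly (0.00787) and Xpot in Poly compared with Baso (-0.00465). Tnpo1 in Ortho compared with Pro was -0.33 with a common FPKM sum, and its values without 1 library ran from -0.15 to 0.33.

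Leaving out 1 library gave 6 to 8 carriers lower and 1 higher in Baso compared with Pro, 7 to 8 lower in Poly compared with Pro, and 15 to 20 lower transport genes in Ortho compared with Poly. In Ortho compared with Pro 0 to 1 transport genes were higher and 32 lower. For Poly compared with Baso these values ran from -0.118 to 0.312 for Cse1l and from -0.0119 to 0.0787 for Xpot, both lowest without Baso replicate 2, and from -0.0512 to 0.0232 for Ipo7, highest without Poly replicate 1. Tnpo1 turned without Pro replicate 1 (-0.06), Ortho replicate 1 (-0.15) or Ortho replicate 3 (-0.11).

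Without the Pro libraries, the replicate block gave 1 carrier higher in Poly than Baso, Kpnb1 (0.18, limma, adjusted p = 0.0456). Over all 12 libraries it gave 8 lower carriers in Baso compared with Pro, with Kpna2 added, and changed no other carrier call. It left the counts of other transport genes in Ortho compared with Pro and with Poly unchanged. The calls of those genes from Pro to Baso and from Baso to Poly were not checked with it. Depth is unknown, so no limit from counting can be given.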
